A study of Mus musculus with 9 samples.

Results

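The HoxC cluster genes described here are Hoxc4, Hoxc5, Hoxc6, Hoxc8, Hoxc9 and Hoxc10, which are 6 of the 32289 features counted in each library. They were chosen by their gene symbols, and none of them was used to sort cells into types or positions. The libraries are droplet-based single-cell RNA sequencing of mouse forelimb buds, taken as pairs at E10.75 (the embryonic day, 37 to 39 somites) from embryos on a Swiss Albino background, with 3 libraries from separate samples for each of 3 genotypes. Wild-type embryos (Wt) have 5 digits in the making, whereas E1C8Δ/Δ and E1C5Δ/Δ embryos (EC1CRM8Δ/Δ and EC1CRM5Δ/Δ) are homozygous for deletions of limb bud enhancers (cis-regulatory modules, CRMs) of Grem1, the gene of a secreted antagonist of bone morphogenetic proteins, and form limbs with 4 digits. Both deletions are constitutive, so that every cell of the mutant embryos carries them, and nothing was driven by a transgene or a Cre.

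Hox genes encode homeodomain transcription factors that give cells along the body and limb axes a positional address. Each Hox cluster lies along its chromosome in the order in which its genes are used along the body axis, with the low-numbered genes at the 3′ end being used most anteriorly. Limb patterning is classically assigned to the HoxA and HoxD clusters, while HoxC genes are known for the level along the trunk at which limbs form, for motor neurons and for skin, hair and nail.

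In the genome build that the libraries were counted on (mm10, gene models of GENCODE M21) the cluster lies on the plus strand of chromosome 15. Hoxc10 (ENSMUSG00000022484) is at chr15:102966796-102971893, Hoxc9 (ENSMUSG00000036139) at chr15:102976439-102985099, Hoxc8 (ENSMUSG00000001657) at chr15:102990607-102994111, Hoxc6 (ENSMUSG00000001661) at chr15:102998257-103011881 and Hoxc4 (ENSMUSG00000075394) at chr15:103018934-103036852. The model of Hoxc5 (ENSMUSG00000022485) runs from chr15:102967443-103017429, since one of its 2 transcripts begins within Hoxc10 and spans Hoxc9, Hoxc8 and Hoxc6. Hoxc5 and Hoxc10 therefore share 166 exonic bases on the same strand, which is 8.7% of the exonic length of Hoxc10 and 5.37% of that of Hoxc5, but share none of the last 500 bases that a 3′ assay mostly reads. The other 4 members share no exonic base with another gene of the cluster.

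The members encode closely related proteins, but apart from the exon overlap of Hoxc5 and Hoxc10 the transcripts compared share little exact sequence. The longest run of bases that the compared transcripts of a pair share exactly is 12 to 22 bases long, the longest being between Hoxc8 and Hoxc9. The pair Hoxc5 and Hoxc10 gave 12 bases, so its comparison did not cover the transcripts with the 166 shared exonic bases.

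The 9 libraries held 26620760 to 500559729 unique molecular identifiers (UMIs, each standing for 1 captured mRNA molecule) over 2571 to 28480 deposited barcodes, and 592 to 8699 cells per library were kept, 44654 in all, with a median of 16821 to 47706 UMIs per cell. Pairs of libraries shared 0 to 28 passing barcodes, at most 0.497% of the smaller library. Cells were sorted by fixed marker genes, each first thinned to 10000 UMIs so that depth did not decide, into 33431 mesenchymal cells (connective tissue progenitors), 2118 erythroid, 1847 muscle progenitor, 557 endothelial, 467 ectodermal and 197 myeloid cells. Levels are given as counts per 1000000 UMIs (CPM) summed over the cells of one type in 1 library, and a library enters where it has at least 20 such cells. Levels of different genes are printed side by side but not compared, because capture at the 3′ end differs from gene to gene. Grem1, the gene whose enhancers were deleted, was measured first as a check of the labels of Wt against mutant libraries. In mesenchyme it stood at 43.5, 29.0 and 32.6 CPM in the Wt libraries, at 11.6, 11.6 and 14.0 CPM in E1C8Δ/Δ and at 17.2, 16.5 and 24.5 CPM in E1C5Δ/Δ, and no mutant library reached the Wt range (log2 fold change −1.15 for both mutants against Wt, edgeR quasi-likelihood test, adjusted p = 0.00307). Every E1C8Δ/Δ value lay below every E1C5Δ/Δ value, whereas for the protein the study reports that more GREM1 was left in E1C8Δ/Δ. The check therefore does not cover which mutant is which.

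The members fell apart by tissue. Hoxc8, Hoxc9 and Hoxc10, in the 5′ part of the cluster, were far higher in ectoderm than in mesenchyme. Hoxc8 and Hoxc9 were still counted in mesenchyme, with 1505 and 1902 UMIs over all its cells. Hoxc4, Hoxc5 and Hoxc6, in the 3′ part, stood at closer levels in ectoderm and mesenchyme. In ectoderm, the epithelium that covers the limb bud and forms the apical ridge, 6 libraries had enough cells (439 of the 467). Of the 6 members, 5 were higher in ectoderm than in mesenchyme of the same libraries and none was lower, against 51.2% of all 16202 genes tested that differed in either direction and 23.1% that were higher. The median log2 fold change was 3.09 over the members and −0.07 over all genes. Hoxc10, with few counts in mesenchyme, passed the filter on counts only through ectoderm, so its call could only be higher. It is included in the count and in the median.

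Hoxc8 is known for its part in the identity of thoracic body segments. Its level in ectoderm was 120 and 151 CPM in Wt 1 and Wt 2, 122 and 119 CPM in E1C8Δ/Δ 2 and 3, and 97.1 and 154 CPM in E1C5Δ/Δ 1 and 3. In mesenchyme of all 9 libraries its level lay between 0.869 and 1.86 CPM with a median of 1.23 CPM. Every ectodermal value was thus far above every mesenchymal value and the ranges of Wt and mutant libraries overlapped. The ratio of the mean levels was 100, and the log2 fold change was 6.66 ± 0.12 (SE, 6 libraries, edgeR quasi-likelihood test with library as a block, Benjamini-Hochberg adjusted p = 7.58e-23).

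Hoxc9, which sets the boundary between limb-level and thoracic motor neurons in the spinal cord, showed the same order. Its ectodermal level was 40.9 and 61.4 CPM in Wt 1 and Wt 2, 44.6 and 66.1 CPM in E1C8Δ/Δ 2 and 3, and 31.1 and 52.7 CPM in E1C5Δ/Δ 1 and 3. Its mesenchymal level was 0.968 to 1.97 CPM with a median of 1.61 CPM over 9 libraries. Ectoderm was higher in 6 of 6 libraries with no overlap, by a log2 fold change of 4.92 ± 0.15 (adjusted p = 2.35e-18, same test).

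Hoxc10, a gene otherwise known from hindlimb and lumbar levels, was nearly confined to ectoderm in these forelimb buds. It stood at 22.2 and 18.0 CPM in Wt 1 and Wt 2, at 12.9 and 15.5 CPM in E1C8Δ/Δ 2 and 3, and at 6.23 and 10.9 CPM in E1C5Δ/Δ 1 and 3. Over all 33431 mesenchymal cells only 46 UMIs of Hoxc10 were counted, and no library passed 0.0718 CPM. The log2 fold change was 8.30 ± 0.40 (adjusted p = 2.06e-14, same test). A call of Hoxc10 could only be higher, because it passed the filter on counts through ectoderm alone. The hindlimb markers Tbx4 and Pitx1 together averaged 0.111 CPM in ectoderm and 4.31 CPM in mesenchyme.

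The mesenchymal levels of these 3 genes were small enough to be set beside ectodermal transcripts found in mesenchymal cells. The mesenchymal level as a percentage of the ectodermal level was 0.997% for Hoxc8, 3.25% for Hoxc9 and 0.301% for Hoxc10. For the ectodermal markers it was 1.29% for Krt18, 0.78% for Krt8, 0.702% for Epcam, 0.236% for Trp63, 0.205% for Krt5 and 0.156% for Wnt6. Hoxc8 and Hoxc10 lay inside the range of these 6 markers and Hoxc9 above it. The 6 are among the 11 ectodermal markers used to sort the cells. A mesenchymal cell could hold at most 1 of those, so sorting itself lowers their percentages. The members were not used for sorting, so the comparison cannot place them against carried-over ectodermal RNA. How much of the mesenchymal signal is free RNA was not tested.

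Hoxc5 and Hoxc6, neighbours in the 3′ part of the cluster, were higher in ectoderm by less. Hoxc5 stood at 11.3 and 13.0 CPM in Wt 1 and Wt 2, 18.3 and 12.8 CPM in E1C8Δ/Δ 2 and 3, and 39.2 and 14.1 CPM in E1C5Δ/Δ 1 and 3, against 4.71 to 10.0 CPM with a median of 7.26 CPM in mesenchyme. The value of E1C5Δ/Δ 1 is far above the other 5, which lie close together, and all 6 exceed the mesenchymal range (log2 fold change 1.26 ± 0.15, adjusted p = 2.36e-07, same test). Hoxc6 stood at 33.5 and 36.7, 30.8 and 32.8, and 51.1 and 39.5 CPM in the same order, against 22.4 to 31.1 CPM in mesenchyme. It was higher in ectoderm in 5 of 6 libraries and the ranges touched (log2 fold change 0.54 ± 0.11, adjusted p = 0.000185, same test). With only ectodermal cells that held no mesenchymal marker, a choice made after the levels had been seen, Hoxc6 no longer passed (log2 fold change 0.29, adjusted p = 0.117) while Hoxc5 did at 0.91 (adjusted p = 0.0036). Only 4 libraries had enough such cells, 2 of Wt and 2 of E1C8Δ/Δ, so that both E1C5Δ/Δ libraries, which had the highest ectodermal Hoxc6, left the fit together with the cells.

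Hoxc4, the most 3′ gene of the cluster, did not separate the tissues. It stood at 20.7 and 15.0 CPM in Wt 1 and Wt 2, 12.9 and 15.5 CPM in E1C8Δ/Δ 2 and 3, and 24.3 and 13.3 CPM in E1C5Δ/Δ 1 and 3, against 9.67 to 18.4 CPM in mesenchyme. The ranges overlapped and ectoderm was higher in 4 of 6 libraries (log2 fold change 0.16 ± 0.14, adjusted p = 0.365, same test).

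**Figure D1:**
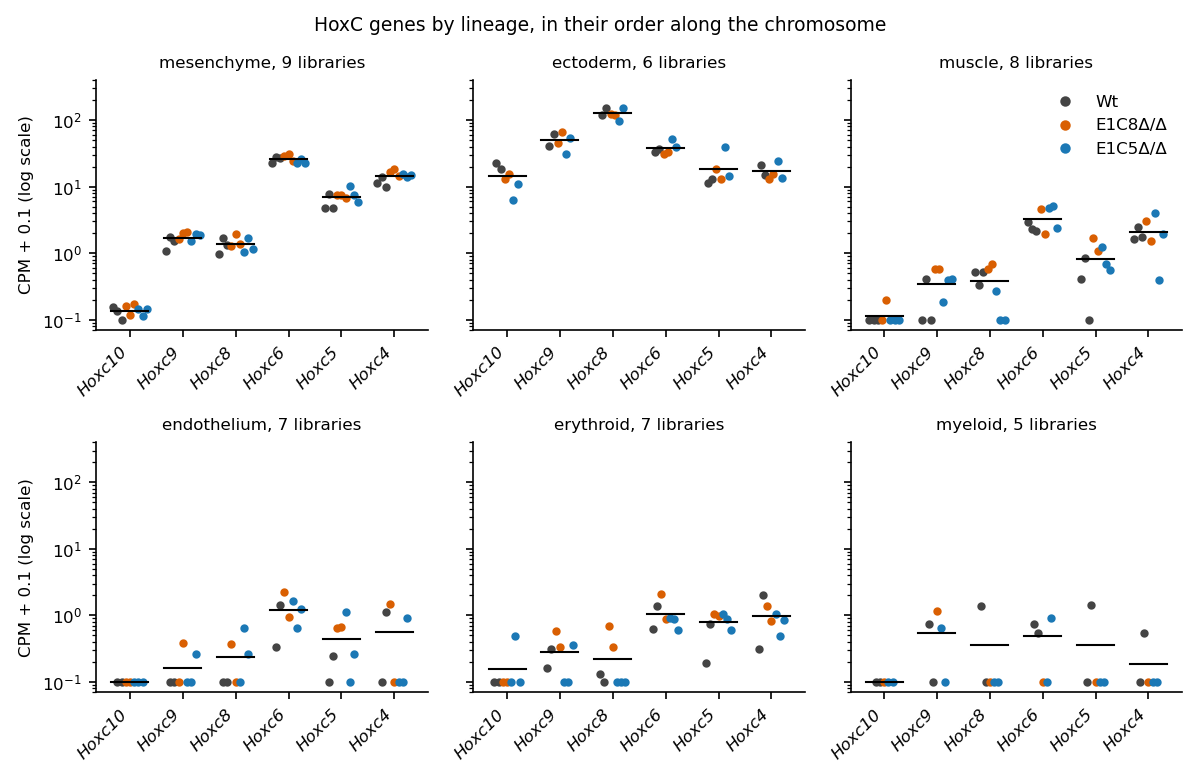
Level of each HoxC gene by cell type, in chromosome order; each point is 1 library (CPM + 0.1 summed over its cells, log axis), coloured by genotype, and lines are means. Hoxc8, Hoxc9 and Hoxc10 points in ectoderm stand clear of those in every other cell type, while Hoxc4 and Hoxc6 points of ectoderm and mesenchyme overlap, those of Hoxc5 lie higher in ectoderm by a ratio of means of 2.58, and all of these genes are low in muscle, endothelial, erythroid and myeloid cells.

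Of the other genes of the cluster Hoxc13 was far higher in ectoderm as well, and the rest had few counts. Hoxc13, a gene known for hair and nail, was counted 329 times in the 467 ectodermal cells and 53 times in all mesenchymal cells (log2 fold change 8.76), and Hoxc11, with 5 and 21 UMIs and at 0 in 4 of 6 ectodermal libraries, also passed at 3.90. Both passed the filter on counts only through ectoderm, so their calls could only be higher. Hoxc12 had 8 UMIs in ectoderm and 0 in mesenchyme, and the antisense transcript Hotair had 0 in ectoderm and 1 in mesenchyme, and neither was tested. The Hox genes of the same paralogue groups in the other clusters went the other way. None of the 14 was higher in ectoderm and 13 were lower, where 28.1% of all genes were lower, with a median log2 fold change of −3.38. The largest differences were −4.27 for Hoxd9, −3.97 for Hoxa9, −3.86 for Hoxa10, −3.86 for Hoxa6, −3.67 for Hoxd8, −3.46 for Hoxd10, −3.45 for Hoxd4 and −3.32 for Hoxa5.

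The other fixed lists were mixed. Of the 9 TALE homeodomain cofactors, which bind DNA together with Hox proteins, 4 were higher in ectoderm (Pknox2 by 1.78, Meis3 by 1.38, Meis1 by 0.46 and Meis2 by 0.20 on the log2 scale) and 4 were lower (Pbx3 at −0.75 among them). Of the 6 neighbours of the cluster on the chromosome, 2 were higher and 2 were lower, and of 7 Polycomb genes, whose products silence Hox clusters, 1 was higher and 4 were lower.

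Shares of cells with at least 1 UMI showed the same division, here in cells thinned to 10000 UMIs. In ectoderm Hoxc8 was found in 55.4% ± 5.73 of cells (SD, n = 6 libraries), Hoxc9 in 30.7% ± 5.22, Hoxc6 in 30.3% ± 4.51, Hoxc4 in 16.1% ± 3.74, Hoxc5 in 15.5% ± 4.36 and Hoxc10 in 9.66% ± 3.50. In mesenchyme the shares were 1.20% for Hoxc8, 1.60% for Hoxc9, 19.9% for Hoxc6, 11.5% for Hoxc4, 5.09% for Hoxc5 and 0.042% for Hoxc10 (mean of 9 libraries). Erythroid cells held Hoxc4 in 0.973%, Hoxc6 in 0.95%, Hoxc5 in 0.598%, Hoxc9 in 0.122%, Hoxc10 in 0.188% and Hoxc8 in 0% of cells. How much free RNA adds to the shares of either cell type was not tested. The mesenchymal shares of Hoxc4, Hoxc5, Hoxc6, Hoxc8 and Hoxc9 are above those erythroid shares. The erythroid share of Hoxc10 comes from 1 cell of 2092, in E1C5Δ/Δ 2, and is 0% without that library, so the order for Hoxc10 rests on it. Before thinning the median depth per library was 17262 to 26147 UMIs in ectoderm, 17036 to 50014 in mesenchyme and 18390 to 39208 in erythroid cells, and without thinning the mesenchymal shares were 24.3% for Hoxc4, 38.5% for Hoxc6 and 3.50% for Hoxc8.

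Muscle progenitors, which migrate into the bud from the somites, and endothelial, erythroid and myeloid cells held little of any member. All 5 members with enough counts for the test were lower than in mesenchyme in each of the 4 cell types, where 26.5% of genes were lower in muscle, 40.9% in endothelium, 45% in erythroid and 35.7% in myeloid cells (54.7%, 73.3%, 75.1% and 61.2% in either direction). In muscle the log2 fold changes were −2.62 ± 0.14 for Hoxc4, −3.09 ± 0.16 for Hoxc5, −2.96 ± 0.12 for Hoxc6, −2.10 ± 0.33 for Hoxc8 and −2.56 ± 0.27 for Hoxc9. In erythroid cells they were between −3.44 and −1.83. In endothelium they were between −4.51 and −4.40 for Hoxc4, Hoxc5 and Hoxc6, while Hoxc8 rests on 3 UMIs and Hoxc9 on 2 UMIs, each at 0 in most of the 7 libraries. In myeloid cells each member rests on 1 to 3 UMIs, so that the fitted sizes depend on the prior count, and Hoxc4 (1 UMI) and Hoxc5 (3 UMIs) were found in Wt 2 alone. With so few UMIs, all members in myeloid cells and Hoxc8 and Hoxc9 in endothelium passed the filter on counts through mesenchyme. So did Hoxc5 in endothelium (8 UMIs), and Hoxc8 (9 UMIs) and Hoxc9 (11 UMIs) in erythroid cells. The only possible call of all of these was lower, so for them the counts above the share of all genes were set in advance. In muscle Hoxc8 and Hoxc9 rest on 19 and 18 UMIs, and a fit within muscle alone kept 3 members. The highest level of any member in any library of these cell types was 5.01 CPM, of Hoxc6 in muscle. In the 5 libraries with enough myeloid cells Hoxc8 rests on 2 UMIs, both in Wt 1, and Hoxc9 on 3 UMIs in 3 libraries. Their calls were lost with DESeq2 (adjusted p = 0.0852 and 0.0949) and without Wt 2 (−1.63 and −1.44) or E1C5Δ/Δ 3 (−2.01 and −1.62), and that of Hoxc8 also without E1C8Δ/Δ 2 or E1C5Δ/Δ 1 (−1.90 and −1.92).

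Within ectoderm the apical ridge, the signalling epithelium at the tip of the bud, was set apart by at least 2 of 7 ridge genes, Fgf8 among them. With at least 10 ridge cells, 5 libraries could be compared with their other ectodermal cells. Hoxc8 averaged 168 ± 38.7 CPM in the ridge and 120 ± 10.74 CPM in the rest (SD, n = 5), and was higher in 5 of 5 libraries. Hoxc6 averaged 45.8 ± 10.2 and 31.1 ± 4.63 CPM and was also higher in 5 of 5. Both gave p = 0.0625 in an exact sign-flip permutation test, which is the smallest p that 5 libraries allow, so that the test could not pass 0.05. Hoxc9 was higher in the ridge in 4 of 5 libraries (63.7 ± 24.4 against 49.3 ± 7.06 CPM, exact p = 0.188), and Hoxc4, Hoxc5 and Hoxc10 were higher in 2, 2 and 1 of 5 (exact p = 0.625, 0.875 and 0.75). In ventral ectoderm, marked by En1, Hoxc8 stood at 142 to 161 CPM and Hoxc10 at 12.5 to 27.3 CPM in the 3 libraries with enough cells, within the range of the ridge for Hoxc8. The dorsal ectoderm, marked by Wnt7a, had too few cells in every library.

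The same ectodermal cells tended to hold neighbouring members. Hoxc8 was found in 73.3% of thinned cells with a Hoxc9 UMI and in 48.9% of those without one, a difference of this sign in 6 of 6 libraries. Hoxc5 was found in 32.9% of cells with a Hoxc4 UMI and in 11.4% of those without, in 5 of 5 libraries. Between Hoxc4 and the 5′ members the order was turned, and Hoxc8 was found in 43.8% of cells with Hoxc4 and in 58.9% of those without, and Hoxc9 in 20.5% and 33.2%, with a higher share among Hoxc4 cells in 1 and 0 of 5 libraries. Hoxc6 cells differed less, with Hoxc8 in 54.5% against 57.4% and Hoxc9 in 30.8% against 31.5%, higher among Hoxc6 cells in 1 and 3 of 6 libraries. In mesenchyme Hoxc6 was found in 42.2% of Hoxc4 cells against 16.5% of others and Hoxc5 in 18.8% against 3.41%, in 9 of 9 libraries, while Hoxc9 differed little, at 1.94% against 1.56% and higher in 4 of 9. Mesenchymal Hoxc8 was found in 2.37% of Hoxc4 cells against 1.21% of others, higher in 6 of 9 libraries, and in 2.51% of Hoxc6 cells against 1.06%, higher in 8 of 9. Within the shoulder groups the shares of Hoxc6 were mixed. In scapular-level cells it was found in 43.3% of Hoxc4 cells against 43.4% of others (higher in 4 of 8 libraries) and in 40.6% of Hoxc5 cells against 44.4% (0 of 7). In anterior proximal cells it was found in 52.5% of Hoxc4 cells against 43.9% (7 of 7) but in 39.7% of Hoxc5 cells against 50.2% (1 of 6). Hoxc5 was still found more often with Hoxc4, at 32.8% against 22.7% in scapular-level (8 of 8) and 31.5% against 21.3% in anterior proximal cells (6 of 7). These shares come from cells of the same libraries at a single depth, and are given as a description with no test.

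In mesenchyme the members followed the axes of the limb bud. Hoxc4, Hoxc5 and Hoxc6 were highest at the base of the bud and lowest at its tip, by more than an order of magnitude, while Hoxc9 and Hoxc8 were higher in the group of posterior cells than in the rest, and Hoxc8 stood higher along the anterior genes too. Position was read from the 4 genes of each of the study's position scores. From cells with none of the proximal genes (Rarb, Irx3, Meis2 and Pkdcc) to cells with all 4, the mean level of Hoxc4 went from 1.71 to 54.8 CPM, a ratio of 32.1, with every step upward. That of Hoxc5 went from 0.858 to 30.9 CPM, that of Hoxc6 from 5.39 to 61.1 CPM and that of Hoxc8 from 0.238 to 3.64 CPM. The 4 genes were higher at the proximal end in 9 of 9 libraries. Hoxc9 went from 1.04 to 2.11 CPM and was higher in 7 of 9.

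Along the distal genes (Cyp26b1, Sall3, Lmo2 and Wnt5a) the order was turned. From none to 3 of the 4 genes, Hoxc4 went from 23.5 to 3.16 CPM, Hoxc5 from 11.2 to 1.69 CPM, Hoxc6 from 38.6 to 8.80 CPM and Hoxc8 from 1.95 to 0.271 CPM, each lower in 9 of 9 libraries. Hoxc9 went from 1.87 to 0.960 CPM, lower in 8 of 9. With all 4 distal genes (7 libraries) Hoxc4, Hoxc5 and Hoxc6 had lower means still, while Hoxc8 stood at 0.501 and Hoxc9 at 1.02 CPM. Along the anterior genes (Alx4, Boc, Pax1 and Sox6), from none to 2, Hoxc4 stood higher by a ratio of 3.88, Hoxc5 by 3.95 and Hoxc6 by 3.09, in 9 of 9 libraries, Hoxc8 by 1.76, in 8 of 9, and Hoxc9 by 1.15, in 7 of 9. Along the posterior genes (Hand2, Osr1, Shh and Prdm1), from none to 2, Hoxc4 went down from 19.9 to 6.20 CPM, Hoxc5 from 10.6 to 2.39 CPM and Hoxc6 from 33.1 to 13.4 CPM, in 9 of 9 libraries. Hoxc9 instead went from 1.42 to 2.53 CPM, higher in 7 of 9, and Hoxc8 from 1.29 to 1.83 CPM, higher in 5 of 9. Hoxc8 had no steady course, at 1.11 CPM with 1 posterior gene and 1.01 CPM with 3 (6 libraries). Hoxc9 stood at 1.46 and 4.01 CPM in those cells.

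**Figure D2:**
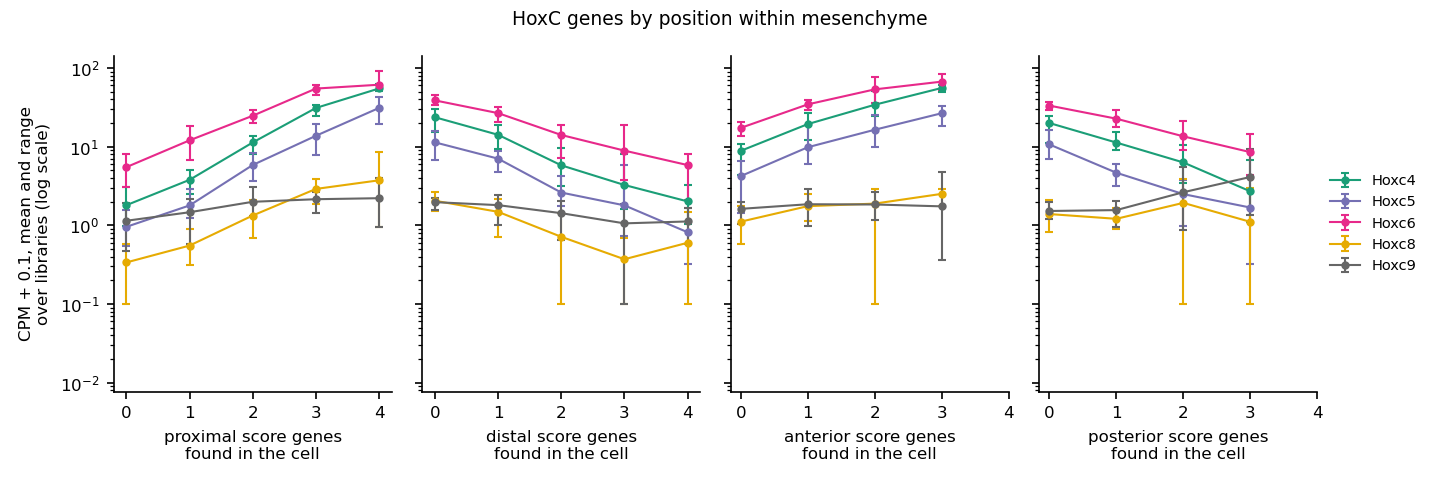
Level of 5 HoxC genes in mesenchymal cells by how many of the 4 genes of each position score a cell held; points are the mean and bars the lowest and highest library, on a log axis of CPM + 0.1. Hoxc4, Hoxc5, Hoxc6 and Hoxc8 climb with proximal genes. Hoxc4, Hoxc5 and Hoxc6 drop with distal genes, and Hoxc8 drops up to 3 of them but is higher again with 4. Hoxc9 is the flattest along the proximal axis and climbs with posterior genes.

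For a finer map, 11 groups of mesenchymal cells were set apart by 1 to 3 marker genes each. They overlap, 61.1% of the proximal cells and 52.9% of the scapular-level cells also being chondrogenic. Each group was compared with all other mesenchymal cells of the same libraries, and of the members tested 47 comparisons passed in all. Per group 5 or 6 members were tested and 3 to 5 passed. The share of all genes that passed ran from 6.48% in cells with Sostdc1 and Hgf to 63% in chondrogenic cells, and is given with each group below. Hoxc10 reached at most 0.967 CPM in any library of any group. It had enough counts for the test in 2 groups and passed in neither.

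Scapular-level cells (with Emx2 and Gria2) and anterior proximal cells (with Pax1 and Alx4), which lie where the limb joins the shoulder girdle, had the highest levels. Hoxc4 ranged from 59.0 to 85.6 CPM in scapular-level cells (median 67.1 CPM, 8 libraries) and from 52.1 to 81.6 CPM in anterior proximal cells (median 58.7 CPM, 8 libraries). These 2 groups were not separated by more than their spread, and the lowest of their values lay above the highest of proximal cells. In scapular-level cells 4 of the 5 members tested were higher than in the rest of the mesenchyme and none was lower, against 39.7% of all genes that differed and 16.4% that were higher. The log2 fold changes were 2.92 ± 0.10 for Hoxc5, 2.38 ± 0.08 for Hoxc4, 1.41 ± 0.05 for Hoxc6 and 1.02 ± 0.21 for Hoxc8, with adjusted p of at most 0.000323, and −0.20 ± 0.24 for Hoxc9 (adjusted p = 0.554). Anterior proximal cells gave the same 4 calls (21.2% of all genes differed and 8.63% were higher), with 2.58 ± 0.11 for Hoxc5, 2.26 ± 0.08 for Hoxc4, 1.50 ± 0.06 for Hoxc6, 1.19 ± 0.20 for Hoxc8 and 0.30 ± 0.23 for Hoxc9. Trunk somite markers, a list of 6 genes, had higher mean sums in these 2 groups than in all mesenchyme. They did not follow the order of Hoxc4 and Hoxc5, at means of 45.7 CPM in anterior proximal, 50.9 CPM in proximal and 51.8 CPM in chondrogenic cells. They summed to 68.7 to 102 CPM in scapular-level, 36.9 to 73.7 CPM in proximal, 36.3 to 66.5 CPM in chondrogenic and 29.0 to 65.8 CPM in anterior proximal cells, against 19.2 to 37.2 CPM in all mesenchyme, 8.64 to 22.5 CPM in posterior and 2.21 to 12.8 CPM in distal cells. Tcf15 made up most of the sum (a mean of 77.3 CPM in scapular-level cells and 24.0 CPM in all mesenchyme), while Uncx, Pax9 and Nkx3-2 stood at 0 to 0.327 CPM in every library of the scapular-level cells. Their part in the levels of the members was not tested.

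Proximal cells (with Gsc and Creb5) parted the members. Hoxc6 stood at 59.9 ± 5.27 CPM (SD, 9 libraries) there and Hoxc8 at 3.31 ± 1.49 CPM, both at the level of the shoulder groups. Hoxc5 stood at 6.72 ± 2.36 CPM, against 43.2 ± 9.17 CPM in scapular-level cells. The comparison with the rest gave 1.27 ± 0.05 for Hoxc6, 1.24 ± 0.19 for Hoxc8 and 1.06 ± 0.08 for Hoxc4, and did not pass for Hoxc5 at −0.03 ± 0.12 and Hoxc9 at 0.39 ± 0.18 (adjusted p = 0.849 and 0.0668), among 57.1% of genes that differed and 26% that were higher. Chondrogenic cells (with Sox9 and Col2a1, the skeletal progenitors of the core) were higher in Hoxc4 by 1.29 ± 0.11, Hoxc6 by 1.22 ± 0.07, Hoxc5 by 1.02 ± 0.13 and Hoxc8 by 0.87 ± 0.10, and lower in Hoxc9 at −0.57 ± 0.11 (63% of genes differed).

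Toward the tip the levels dropped off. In zeugopod-level cells (with Hoxa11, without Hoxa13), Hoxc4 stood at 2.29 to 7.99 CPM (median 3.94 CPM), and in distal autopod cells (with Hoxa13 and Hoxd13) at 0.166 to 3.44 CPM (median 1.36 CPM). Every distal value was far below every value in the shoulder groups. In distal cells all 5 members tested were lower, against 39.3% of genes that differed and 20.5% that were lower, by log2 fold changes of −3.05 for Hoxc5, −3.01 for Hoxc4, −2.85 for Hoxc6, −2.49 for Hoxc8 and −0.89 for Hoxc9. Hoxc8 has 7 UMIs over all 682 distal cells and is at 0 in 5 of 8 libraries. It passed the filter on counts through the other mesenchymal cells, so its call could only be lower. Hoxc5 and Hoxc9 have 24 and 25 UMIs, and a fit within distal cells alone kept 1 member, so the count of 5 was in part set in advance. The Hoxc9 call there was lost under 3 of 15 other settings, and its smallest size was −0.131. Zeugopod-level cells were lower in 4 (−2.29 for Hoxc5, −2.23 for Hoxc4, −1.60 for Hoxc6 and −1.36 for Hoxc8, where 51.8% differed), with Hoxc9 at −0.20 (adjusted p = 0.107). Cells that held Grem1 and Osr2 were lower in all 5 (25% differed), from −3.10 for Hoxc5 to −1.50 for Hoxc8. Over all 898 of them Hoxc8 has 17 UMIs and Hoxc9 has 19, and a fit within these cells alone kept 2 members. With so few counts a higher call was hardly open to the rest. Peripheral cells (with Asb4, Lhx2 and Msx1) and cells with Sostdc1 and Hgf lay between. Peripheral cells had 4 calls, from −0.63 for Hoxc8 to 0.26 for Hoxc9, among 49.1% of genes that differed. The calls of Hoxc4 (−0.39) and Hoxc5 (−0.59) turned to 0.0407 and 0.0146 when cells were grouped on all UMIs. Sostdc1 cells had 3 calls, the largest being −1.70 for Hoxc5, among 6.48%.

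In the posterior mesenchyme the members moved apart. Posterior cells (with Osr1 and Tbx3, without Shh) had Hoxc9 at 1.07, 3.41 and 4.12 CPM in Wt, 2.46, 4.10 and 3.13 CPM in E1C8Δ/Δ and 4.54, 6.21 and 2.89 CPM in E1C5Δ/Δ. The mesenchymal range of 0.968 to 1.97 CPM was exceeded in 8 of the 9 libraries. Of the 5 members tested 2 were higher and 3 lower, against 35.2% of all genes that differed, 15.2% higher and 20% lower. Hoxc9 was higher by 1.18 ± 0.15 (adjusted p = 6.57e-07) and Hoxc8 by 0.74 ± 0.20 (adjusted p = 0.00487), while Hoxc5 at −1.24 ± 0.12, Hoxc4 at −1.07 ± 0.09 and Hoxc6 at −0.92 ± 0.08 were lower.

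These posterior levels are low, so ectodermal transcripts in the same cells were measured beside them. The 11 ectodermal markers summed to 10.1 ± 2.89 CPM in posterior cells and to 13.1 ± 2.40 CPM in all mesenchymal cells (SD, 9 libraries). Without any cell that held an ectodermal marker, a choice made after the levels had been seen, the log2 fold changes were 1.10 for Hoxc9 (adjusted p = 2e-06) and 0.78 for Hoxc8 (adjusted p = 0.00524). Cells with Shh, the posterior signalling centre, had Hoxc9 higher by 0.73 ± 0.26 (adjusted p = 0.0432) and Hoxc4, Hoxc5, Hoxc6 and Hoxc8 lower, from −2.38 for Hoxc6 to −1.10 for Hoxc8, among 25.7% of genes that differed. The Hoxc9 call pools the genotypes. Against all mesenchyme of the same library Hoxc9 was higher in Shh cells of 4 of 7 libraries, all of them mutant, and lower in Wt 1 (0.873 against 0.968 CPM), Wt 2 (0.790 against 1.61 CPM) and E1C5Δ/Δ 1 (1.20 against 1.44 CPM). That Hoxc9 call was lost under 10 of 14 other settings, among them without E1C8Δ/Δ 2, E1C8Δ/Δ 3, E1C5Δ/Δ 2 or E1C5Δ/Δ 3 (0.34 to 0.73). The call of Hoxc8 in Shh cells was lost under 4 of 14, among them without Wt 2 (−0.99).

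**Figure D3:**
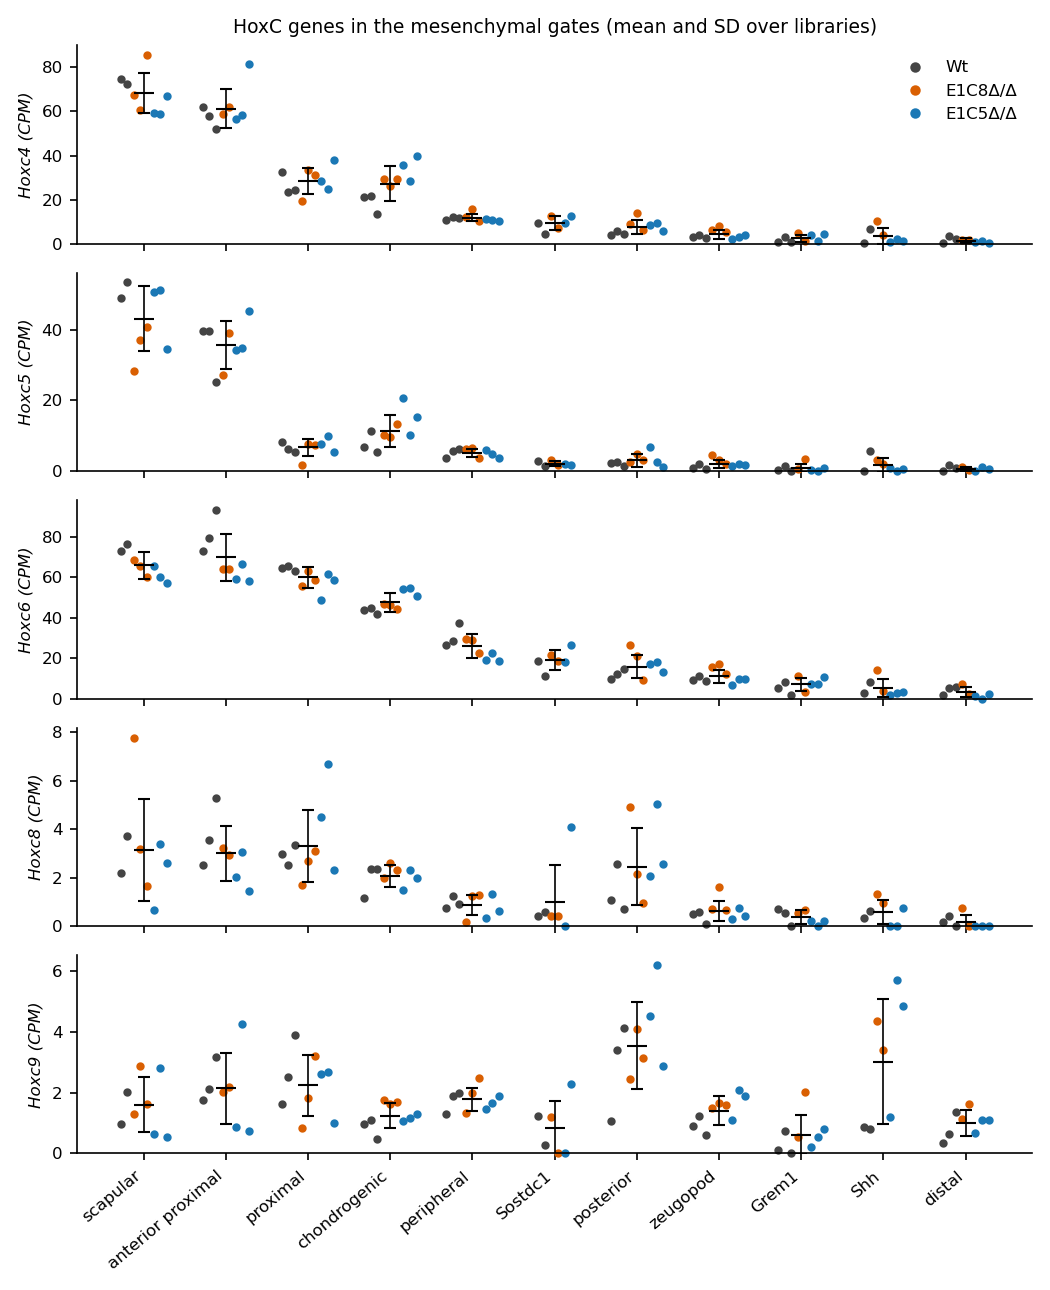
Level of 5 HoxC genes in 11 marker-defined groups of mesenchymal cells; each point is 1 library (CPM, linear axes that differ between genes), coloured by genotype, with the mean and SD over libraries as bars. Hoxc4, Hoxc5 and Hoxc6 are highest in scapular-level and anterior proximal cells and lowest in distal cells, while Hoxc9 has its highest means in posterior and Shh cells, in the latter from mutant libraries, with both Wt points under 1 CPM.

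In the order of the 11 groups few neighbouring levels were separated by more than the spread of their difference over libraries. For Hoxc4 the order ran from scapular-level (68.3 ± 9.17 CPM) and anterior proximal (61.2 ± 8.83) over proximal (28.4 ± 5.94), chondrogenic (27.3 ± 7.93), peripheral (11.7 ± 1.59), Sostdc1 (9.27 ± 3.25), posterior (7.52 ± 3.17), zeugopod-level (4.22 ± 1.90), Shh (3.64 ± 3.66) and Grem1 cells (2.55 ± 1.64) to distal cells (1.44 ± 1.10). The steps from anterior proximal to proximal, from chondrogenic to peripheral and from posterior to zeugopod-level cells were larger than their spread, the others were not. For Hoxc8, from 3.31 CPM in proximal to 0.169 CPM in distal cells, and for Hoxc9, from 3.55 CPM in posterior to 0.618 CPM in Grem1 cells, no neighbouring step was.

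Genes of the same paralogue groups in other clusters were split as well. In scapular-level cells 6 of 14 were higher (Hoxb6 by 2.55, Hoxb8 by 2.55, Hoxb5 by 2.39, Hoxb4 by 2.27, Hoxa4 by 1.93 and Hoxa5 by 1.07) and 7 were lower, among them Hoxd10 at −2.74, Hoxa10 at −2.60, Hoxd9 at −1.89 and Hoxb9 at −1.63. In posterior cells 2 were higher, Hoxb9 by 1.91 and Hoxb8 by 0.62, which are the HoxB genes of the groups of Hoxc9 and Hoxc8. Hoxb9 was higher in Shh cells too, by 1.79, and in distal cells by 1.84, where Hoxc9 was lower, though not called under every setting. Of the 9 cofactors 6 were higher in proximal cells (Meis3 by 1.99, Meis2 by 1.82 and Meis1 by 1.77 among them) and 7 were lower in distal cells (Meis1 at −3.42 and Meis2 at −3.39).

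The genes whose pattern was most like a member's were named from 10682 genes over 41 Wt values, each 1 library in 1 cell type or mesenchymal group. Hoxc4 was most like Hoxc6 and Hoxc5 (Pearson r of log2(CPM + 1) of 0.96 each) and Zim1 (0.935). Hoxc5 was also like Emx2 (0.893), a marker of the scapular-level cells, and Hoxc6 was like Mme and Zim1 (0.93 each). Hoxc8 was most like Cpz (0.939), Krt8 (0.928) and Krt18 (0.927), Hoxc9 was like Hoxc8 (0.922), Krt8 (0.9) and Cpz (0.894), and Hoxc10 was like C1qtnf3 (0.995), Rhov (0.994) and Krt17 (0.994). The values share libraries and overlapping cells, and for the last 3 members the ectodermal values lie far from all others, so the r values are descriptions with no test.

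The comparison of genotypes asked whether losing Grem1 enhancers was accompanied by a change in these genes. Over all mesenchymal cells none of the 5 members tested passed in the mean of both mutants against Wt, where 2.09% of 16101 genes did. None passed in E1C8Δ/Δ against Wt (8.89% of genes), E1C5Δ/Δ against Wt (1.46%) or E1C8Δ/Δ against E1C5Δ/Δ (8.81%) either. At an unadjusted p under 0.05 there was 1 member in each of the first 3 contrasts, Hoxc4, and 0 in the last, and DESeq2 called 1 in both mutants against Wt, again Hoxc4. The share of all genes at that unadjusted p is not given.

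Hoxc4 stood at 11.1, 13.8 and 9.67 CPM in the mesenchyme of the Wt libraries, at 16.2, 18.4 and 14.5 CPM in E1C8Δ/Δ and at 15.6, 13.7 and 14.7 CPM in E1C5Δ/Δ. All mutant libraries but E1C5Δ/Δ 2 lay above the Wt range. The log2 fold change was 0.43 ± 0.13 (unadjusted p = 0.00602, adjusted p = 0.104, edgeR quasi-likelihood test). DESeq2 gave the same size with an adjusted p of 0.0274. A term for Xist, found in 0 of 3 Wt and in 2 of 3 libraries of each mutant, gave 0.34 with an adjusted p of 0.456.

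The other members differed less. Hoxc5 stood at 4.71, 7.72 and 4.74 CPM in Wt, 7.39, 7.26 and 6.62 CPM in E1C8Δ/Δ and 10.0, 7.40 and 5.79 CPM in E1C5Δ/Δ, with overlapping ranges (0.37, adjusted p = 0.381). Hoxc9 stood at 0.968, 1.61 and 1.43 CPM, 1.50, 1.88 and 1.97 CPM, and 1.44, 1.83 and 1.79 CPM in the same order, also overlapping (0.40, adjusted p = 0.285). Hoxc6 at 0.01 and Hoxc8 at 0.10 were near 0, and Hoxc10 had too few counts.

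The share of mesenchymal cells with a Hoxc4 UMI was 8.59%, 10.5% and 8.52% in Wt, 14.2%, 13.9% and 12.4% in E1C8Δ/Δ and 12.5%, 10.6% and 12.4% in E1C5Δ/Δ. All 6 mutant libraries lay above the 3 Wt libraries, by 3.48 percentage points on average, and the lowest mutant value was next to the highest Wt value. The two-sided exact permutation test gave p = 0.0238, the smallest p it can give with 3 against 6 libraries, and 0.0714 after Benjamini-Hochberg adjustment over the 6 members compared. Hoxc9 gave the same p with no overlap, at 1.25% ± 0.175 in Wt (SD, n = 3) and 1.77% ± 0.202 in the mutants (n = 6). The other 4 members gave adjusted p of at least 0.238, so that none of the 6 passed. With all UMIs in place of 10000 a cell, the groups overlapped for Hoxc4 (22.3% ± 3.13 against 25.4% ± 3.10, exact permutation p = 0.214) and for Hoxc9 (4.50% ± 1.25 against 4.84% ± 0.940, exact permutation p = 0.571).

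Within the mesenchymal groups 1 member was called in both mutants against Wt, in 1 group, and 4 calls were made with no filter on low counts. Xist was found in 0 of 3 Wt and in 2 of 3 libraries of each mutant, and a sex term was fitted over all mesenchyme only. The part of sex in the genotype results of the groups and of ectoderm was not tested. In chondrogenic cells Hoxc4 stood at 21.0, 21.8 and 13.6 CPM in Wt, at 29.3, 26.4 and 29.4 CPM in E1C8Δ/Δ and at 35.9, 28.5 and 40.0 CPM in E1C5Δ/Δ, so that all 6 mutant libraries were above all 3 Wt libraries. It was the single member called among 5 tested, where 1.6% of 13718 genes were called. The log2 fold change of both mutants against Wt was 0.72 ± 0.14 (adjusted p = 0.0338), that of E1C5Δ/Δ was 0.91 ± 0.16 (adjusted p = 0.0168, 1.51% of genes called) and that of E1C8Δ/Δ was 0.53 (adjusted p = 0.0885, 4.35%). The difference between the mutants was −0.37 and did not pass (adjusted p = 0.218, 3.33%). The call was lost without Wt 1, Wt 3, E1C5Δ/Δ 1 or any E1C8Δ/Δ library, with adjusted p of 0.0589 to 0.0731 and log2 fold changes of 0.54 to 0.77, and with a block by replicate number (0.73, adjusted p = 0.0795). That of E1C5Δ/Δ was lost without E1C5Δ/Δ 1 or E1C5Δ/Δ 3 (0.85 and 0.83). With no filter on low counts the calls for both mutants were Hoxc4 at 0.70 (adjusted p = 0.000324) and Hoxc5 at 0.65 (adjusted p = 0.0383) in chondrogenic cells, where 2.65% of genes were called, Hoxc4 at 0.82 (adjusted p = 0.00555) in posterior cells, where 1.84% were, and Hoxc9 at 2.20 (adjusted p = 0.00365) in Shh cells, where 1.79% were.

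The chondrogenic group itself differed in size, at 24.2% to 35.2% of mesenchyme in Wt, 23.8% to 29.6% in E1C8Δ/Δ and 14.1% to 20.8% in E1C5Δ/Δ. With its own clusters, the study reports its largest chondrogenic cluster reduced and a proximal chondrogenic cluster increased in both mutants. The part of such changes of makeup in the Hoxc4 levels was not tested. Some chondrogenic cells also belonged to the shoulder groups or the proximal group. The share that were also scapular-level cells was 1.67% to 6.29% in Wt, 6.0% to 14.0% in E1C8Δ/Δ, which overlaps Wt, and 8.47% to 12.7% in E1C5Δ/Δ. The share that were also proximal cells was 10.2% to 12.6% in Wt, 13.8% to 20.4% in E1C8Δ/Δ and 7.49% to 9.09% in E1C5Δ/Δ, so that it lay above Wt in one mutant and below it in the other. The anterior proximal share was 1.62% to 4.17% over all 9 libraries. These shares were not tested. Without the cells that were also scapular-level, anterior proximal or proximal, a choice made after the call had been seen, Hoxc4 stood at 13.7, 15.9 and 10.3 CPM in Wt, 24.4, 19.5 and 21.7 CPM in E1C8Δ/Δ and 30.4, 26.5 and 32.6 CPM in E1C5Δ/Δ. The groups again did not overlap, and the log2 fold change was 0.89 for both mutants (adjusted p = 0.00602, 1.97% of genes called), 0.63 for E1C8Δ/Δ (adjusted p = 0.039, 5.29%) and 1.16 for E1C5Δ/Δ (adjusted p = 0.0038, 1.87%). Hoxc6 in these cells stood at 36.5, 37.0 and 36.2 CPM in Wt, 37.3, 38.1 and 36.6 CPM in E1C8Δ/Δ and 51.5, 53.1 and 46.3 CPM in E1C5Δ/Δ. The E1C5Δ/Δ libraries lay above all others, by 0.49 against Wt (adjusted p = 0.0246), and E1C8Δ/Δ differed from E1C5Δ/Δ by −0.48 (adjusted p = 0.0279, 3.29% called). Hoxc5 stood at 3.76 to 7.74 CPM in Wt, 6.99 to 11.7 CPM in E1C8Δ/Δ and 9.56 to 16.4 CPM in E1C5Δ/Δ, and gave 1.23 for E1C5Δ/Δ (adjusted p = 0.0589). In the shoulder groups themselves no member was called in the mean of both mutants (0% of genes were in scapular-level and 0.0674% in anterior proximal cells, and 0 of 5 and 1 of 4 members tested had an unadjusted p under 0.05, a share not given for all genes), Hoxc4 standing at 72.6 and 74.7 CPM in Wt and at 59.0 to 85.6 CPM in the mutants in scapular-level cells.

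Other genes of the fixed lists were called in chondrogenic cells of both mutants, namely Hoxa5 at 0.61 (adjusted p = 0.0385) and the cofactor Meis3 at 0.95 (adjusted p = 0.0433). Against Wt, E1C5Δ/Δ chondrogenic cells were higher in Hoxa4 by 0.89, Hoxb4 by 0.83 and Hoxb6 by 1.26, which are paralogues of Hoxc4 and Hoxc6, and lower in Hoxa10 at −0.79. E1C8Δ/Δ cells were higher in Hoxa5 by 0.60 and Hoxa9 by 0.52. Both contrasts share the Wt libraries.

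**Figure D4:**
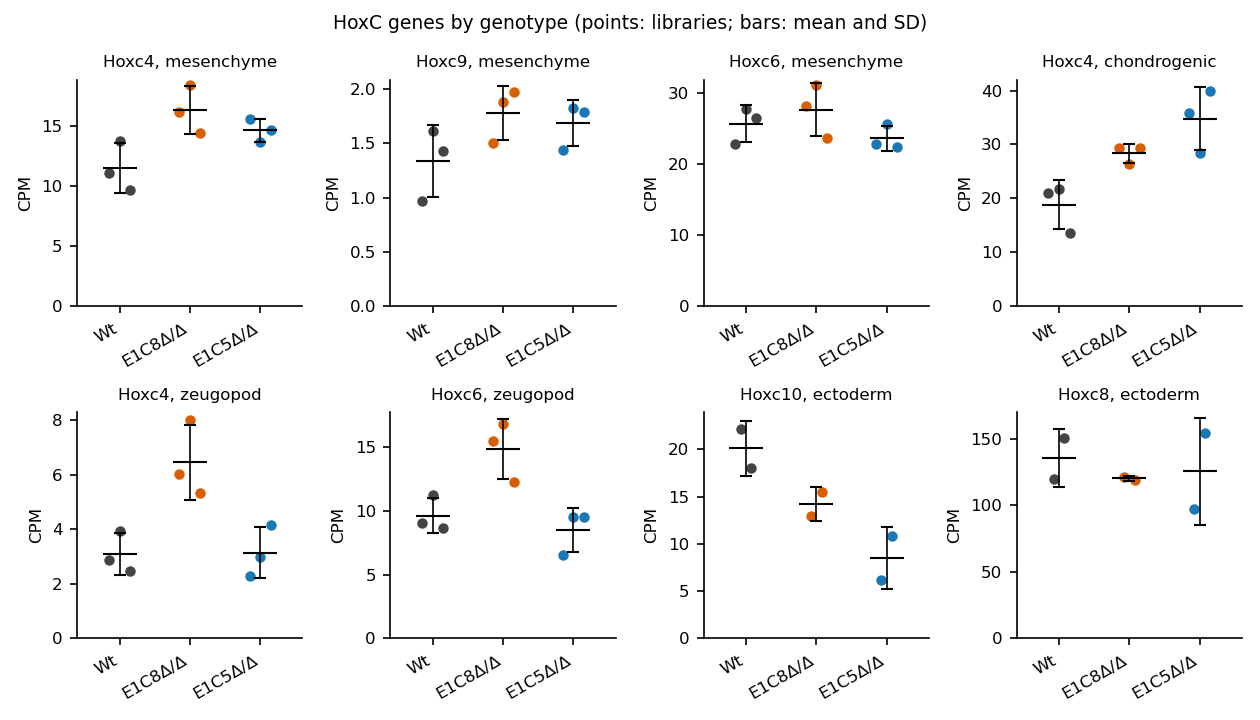
Level of HoxC genes by genotype, with 1 point per library (CPM) and the mean and SD as bars. In chondrogenic cells all 6 mutant libraries lie above the 3 Wt libraries for Hoxc4, in zeugopod-level cells the 3 E1C8Δ/Δ libraries lie above the other 6, and in ectoderm the 4 mutant libraries lie below the 2 Wt libraries for Hoxc10, which was not called.

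In zeugopod-level cells the mutants differed from each other. Hoxc4 stood at 2.88, 3.94 and 2.47 CPM in Wt, at 6.02, 7.99 and 5.32 CPM in E1C8Δ/Δ and at 2.29, 2.97 and 4.14 CPM in E1C5Δ/Δ. The E1C8Δ/Δ libraries lay above all others, while Wt and E1C5Δ/Δ overlapped. E1C8Δ/Δ was higher than Wt by 0.99 ± 0.24 (adjusted p = 0.0258, 9.71% of genes called) and than E1C5Δ/Δ by 0.98 ± 0.24 (adjusted p = 0.0241, 9.94% called). Hoxc6 stood at 9.04, 11.2 and 8.63 CPM in Wt, 15.5, 16.9 and 12.3 CPM in E1C8Δ/Δ and 6.55, 9.52 and 9.52 CPM in E1C5Δ/Δ, in the same order of genotypes. It was higher in E1C8Δ/Δ than in E1C5Δ/Δ by 0.73 ± 0.17 (adjusted p = 0.0197), and against Wt it gave 0.57 with an adjusted p of 0.054. Leaving out 1 library ended the call of Hoxc4 against Wt without Wt 1, Wt 3, E1C8Δ/Δ 1 or E1C8Δ/Δ 2 (0.79 to 1.04), that of Hoxc4 between the mutants without E1C8Δ/Δ 2, E1C5Δ/Δ 1 or E1C5Δ/Δ 2 (0.78 to 0.96) and that of Hoxc6 without E1C8Δ/Δ 1, E1C8Δ/Δ 2 or E1C5Δ/Δ 1 (0.60 to 0.73). The Hoxc4 calls were also lost when cells taken for doublets were kept (0.81 and 0.76, adjusted p = 0.0555 and 0.0618), and with cells grouped on all their UMIs the difference of Hoxc4 from Wt was 0.48 (adjusted p = 0.0945) and that of Hoxc6 from E1C5Δ/Δ 0.43 (adjusted p = 0.134).

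In ectoderm, with 2 Wt and 4 mutant libraries, none of the 6 members was called in both mutants against Wt by edgeR or DESeq2, and 0% of 10258 genes were with edgeR (3 genes with DESeq2). At an unadjusted p under 0.05 there was 1 member, Hoxc10. Hoxc10 showed no overlap between the groups, with 18.0 and 22.2 CPM in Wt and 6.23 to 15.5 CPM in the mutants. Its log2 fold change was −0.81 (edgeR quasi-likelihood test, unadjusted p = 0.00915, adjusted p = 0.981) and in E1C5Δ/Δ alone −1.15 (adjusted p = 0.840). Hoxc13, at 28.7 and 35.5 CPM in Wt and 8.09 to 24.2 CPM in the mutants, did not overlap either, and gave −0.92. The share of all genes with that unadjusted p or with no overlap is not given. With 2 against 4 libraries such a separation can come by chance, so neither is read as a result. In Shh cells Hoxc9 stood at 0.873 and 0.790 CPM in the 2 Wt libraries and at 1.20 to 5.71 CPM in 5 mutant libraries (2.23, unadjusted p = 0.00184, adjusted p = 0.146, where 0.122% of genes were called), and in posterior cells Hoxc4 was at 0.82 (adjusted p = 0.221, 0.47% called). None of these passed with the filter on low counts. Hoxc10 has 207 UMIs over all 467 ectodermal cells and Hoxc9 has 77 UMIs over all 709 Shh cells. Both totals include libraries with too few cells for the comparison. Hoxc4 in posterior cells has 564 UMIs from 2315 cells.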

How the data were processed

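Single cells of 9 forelimb bud libraries (3 each of Wt, E1C8Δ/Δ and E1C5Δ/Δ) were analysed. The authors deposited raw UMI counts per gene and barcode, made, per the labels, with the Chromium 3′ assay and Cell Ranger 6.0.1 on mm10, with Seurat 4.3.0.1 also named in the submitters' processing notes. From these counts, barcodes with over 2500 genes, under 200000 UMIs and under 10% mitochondrial UMIs were kept, and doublets were called with an artificial-doublet neighbour score (0.8% per 1000 barcodes), marking 7778 of 52432. Cells were thinned to 10000 UMIs and assigned to a cell type by at least 3 markers (muscle 2) and at most 1 marker of any other, leaving 2322 mixed and 992 unassigned cells unused, and all UMIs of assigned cells were summed per library. Sums were tested with edgeR 4.0.16 (quasi-likelihood, TMM, filterByExpr; library as a block between cell types; Benjamini-Hochberg over all genes, threshold 0.05). Genes on X and Y were left out. The study's test over single cells was replaced by these sums, since cells are not replicates. Scripts were tested on simulated data. DESeq2 1.42.0, no filter, other cell filters, a sex term (over all mesenchyme only), a replicate block and left-out libraries were alternatives.

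Members were always named. Other named genes came from fixed lists, where past the threshold, at most 8 per list. The members and lists were chosen with earlier results of these data known. Same-numbered libraries did not deviate together (correlations of −0.15 to 0.0894), so the fits have no block by replicate number. Shares cover counting of captured molecules only, and the members' UMIs in ectoderm (207 for Hoxc10 to 1915 for Hoxc8) limit their precision.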

Additional observations from a re-analysis of the deposited data

Results flagged for a closer look

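In zeugopod-level cells the level of Hoxc4 differed between the 2 mutants under the same comparison with Wt. The log2 difference of E1C8Δ/Δ from E1C5Δ/Δ was 0.98 (edgeR quasi-likelihood test of the difference itself, adjusted p = 0.0241), with 3 of 3 E1C8Δ/Δ libraries above all E1C5Δ/Δ libraries. Hoxc6 in the same cells gave 0.73 (adjusted p = 0.0197), also 3 of 3. The Hoxc4 call was lost with doublets kept (0.76, adjusted p = 0.0618) and without E1C8Δ/Δ 2, E1C5Δ/Δ 1 or E1C5Δ/Δ 2 (0.78 to 0.96). That of Hoxc6 was lost with cells grouped on all UMIs (0.43, adjusted p = 0.134) and without E1C8Δ/Δ 1, E1C8Δ/Δ 2 or E1C5Δ/Δ 1 (0.60 to 0.73).

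Only 6 cells passed the neural crest markers, too few for any comparison of the report. They held 191169 UMIs, among them 10 of Hoxc6 (52.3 CPM) and 7 of Hoxc8 (36.6 CPM), above the 15.7 CPM that 3 counts would give and above the erythroid levels of 0.876 and 0.121 CPM. Hoxc4, Hoxc5 and Hoxc10 had 0 UMIs there and Hoxc9 had 1. With 6 cells no spread between libraries can be given.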

How the results depend on the processing

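No member was called over all mesenchyme in both mutants against Wt, but DESeq2 called 1 (Hoxc4), and leaving out 1 library gave 0 to 1 calls (1 without Wt 2, again Hoxc4, adjusted p = 0.048). Over all genes the calls there numbered 336, against 949 with DESeq2, 92 with the replicate block, 2 with embryo sex as a term and 108 to 803 with 1 library left out. In the mesenchymal groups the count of members called in both mutants against Wt was 1, and became 4 with no filter on low counts, 0 with the replicate block and 0 to 1 with 1 library left out. The replicate block changed no call over all mesenchyme, where it gave 0; same-numbered libraries did not deviate together. The 25 calls between cell types became 20 and the 47 calls between mesenchymal groups 46 with at least 50 cells per library, a setting in which myeloid cells could not be fitted; with 2 UMIs required of the first marker the Sostdc1 group could not. In peripheral cells, grouping on all UMIs turned Hoxc4 to 0.0407 and Hoxc5 to 0.0146 on the log2 scale, from −0.39 and −0.59. Of the other single values 1123 kept their side of the threshold, 58 lost it and 2 gained it, and 80 of 90 counts stayed within 1.5 times. The cause of these changes was not tested. Depth limits Hoxc10 outside ectoderm, and Hoxc8 and Hoxc9 in mesenchyme, where 1.20% and 1.60% of thinned cells held a UMI.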
